A study of Mus musculus with 4 samples.

Results

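The CHD chromatin remodellers are the 9 mouse genes Chd1 to Chd9, taken by symbol from the 52636 genes measured in RNA of the mouse hippocampus. All 9 were detected in both libraries that were analysed. The libraries are inputs of an RNA immunoprecipitation (RIP) with an antibody against YTHDF2, a cytoplasmic reader of m6A-modified mRNA, and the study set out to find the mRNAs bound by YTHDF2. Each input library holds RNA of hippocampal lysate from C57BL/6 mice, labelled WT, at postnatal day 40, made without immunoprecipitation. The labels name 2 input and 2 YTHDF2 immunoprecipitated samples, and the immunoprecipitated pair was not analysed here, so no binding by YTHDF2 is described. The column names do not show which input replicate is which, so the libraries are called the deeper (3334451 counts) and the shallower (2563069 counts). The labels do not say how many animals gave each library, so the spread between the libraries may be technical. A single group leaves nothing to test between groups, so no p-value is given.

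CHD proteins are ATP-dependent motors that slide, space, evict or exchange nucleosomes. They carry paired chromodomains before a helicase-like ATPase of the Snf2 type. Class I (Chd1 and Chd2) has a DNA-binding domain near its C terminus and works at actively transcribed genes. Class II (Chd3, Chd4 and Chd5) has PHD fingers and supplies the motor of the NuRD complex, which couples remodelling to histone deacetylation. Class III (Chd6 to Chd9) contains large proteins, and several of its members bind at enhancers and promoters. In humans, changes in CHD2, CHD3, CHD4, CHD7 and CHD8 cause neurodevelopmental disorders.

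The family shares its ATPase, so the 60 bases that encode the start of that domain are shown for each gene to let the relatedness be seen. They were read from the longest GENCODE M21 transcript, 5′ to 3′. Capitals mark the 15 bases that encode the residues GLGKT, a part of the ATP-binding loop (Walker A motif).
Chd1: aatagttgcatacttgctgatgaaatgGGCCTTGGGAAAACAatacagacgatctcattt
Chd2: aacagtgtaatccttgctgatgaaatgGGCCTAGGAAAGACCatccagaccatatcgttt
Chd3: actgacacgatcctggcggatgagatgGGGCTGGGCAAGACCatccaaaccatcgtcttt
Chd4: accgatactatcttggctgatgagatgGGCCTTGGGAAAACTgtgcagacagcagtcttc
Chd5: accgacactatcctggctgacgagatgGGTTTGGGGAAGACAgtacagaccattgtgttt
Chd6: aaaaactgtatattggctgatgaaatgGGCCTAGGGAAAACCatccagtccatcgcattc
Chd7: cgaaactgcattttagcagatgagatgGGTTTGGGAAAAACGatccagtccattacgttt
Chd8: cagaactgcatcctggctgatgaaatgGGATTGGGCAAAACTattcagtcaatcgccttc
Chd9: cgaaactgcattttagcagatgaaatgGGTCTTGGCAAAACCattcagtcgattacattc
On GRCm38 these stretches each lie in 1 coding exon, at chr17:15735632-15735691 (plus strand) for Chd1, chr7:73493578-73493637 (minus) for Chd2 and chr11:69357726-69357785 (minus) for Chd3. They lie at chr6:125107579-125107638 (plus) for Chd4, chr4:152367393-152367452 (plus) for Chd5 and chr2:161019635-161019694 (minus) for Chd6. Those of Chd7, Chd8 and Chd9 lie at chr4:8826885-8826944 (plus), chr14:52221097-52221156 (minus) and chr8:90989431-90989490 (plus).

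Over these 60 bases, the 10 pairs of genes of the same class were identical at 70% to 85.0% of positions (median 77.5%), and the 26 pairs of different classes at 55.0% to 78.3% (median 65.0%). Chd7 and Chd9 were the most alike, with 51 identical bases. Most of their transcript sequence is nonetheless distinct. Of the 31-base words in the annotated transcripts of each gene, 0% of Chd1, 0.0935% of Chd3, 0.508% of Chd4, 0.830% of Chd5 and 0.0869% of Chd7 also occur in another gene. The longest run of identical bases between the longest transcripts of any pair was one of 35 bases in the coding sequences of Chd3 and Chd4. It is shown with the best-matching stretch of Chd5, in which capitals mark the 3 bases that differ.
Chd3: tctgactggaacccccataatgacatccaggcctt
Chd4: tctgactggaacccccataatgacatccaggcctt
Chd5: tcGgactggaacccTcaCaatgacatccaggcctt
Each stretch spans an exon junction, at chr11:69353891-69354091 (minus strand) in Chd3, chr6:125113560-125113904 (plus) in Chd4 and chr4:152375172-152376140 (plus) in Chd5.

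Chd2 was the exception in sequence sharing, with 18.7% of its 31-base words in other genes. Words found in 1810026B05Rik were 17.7% of those of Chd2. That gene, also named Chaserr, is a noncoding gene next to Chd2 that is known in mouse to restrain Chd2 expression. Chd6, Chd8 and Chd9 shared 1.61%, 5.94% and 4.24%. How the authors' counter treated reads of overlapping genes, and whether it used strand, is not stated in the sources used.

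The direction of the family total between the libraries depended on the scaling. The CHD genes summed to 6039 counts in the deeper library and 4705 in the shallower, or 1811 CPM (counts per 1000000 counts of the library) and 1836 CPM, a mean of 1823 ± 17.4 CPM (SD, n = 2). The 95% Poisson intervals of these sums, 1766 to 1857 CPM and 1784 to 1889 CPM, overlap. Such intervals, here and below, cover counting error only. This was 0.181% of all counts of the deeper library and 0.184% of the shallower. Of the counts of nuclear protein-coding genes alone it was 0.253% and 0.242%. With TMM (trimmed mean of M values) scaling the log2 ratio of the family sum, deeper over shallower, was 0.13 (95% counting interval 0.07 to 0.18). That of class II was 0.13 (0.07 to 0.20). On that scale both sums were higher in the deeper library by more than counting error. The class II ratio was not class-wide, at 0.23 for Chd3, -0.02 for Chd4 and 0.00034 for Chd5. Of the 6915 genes averaging 20 CPM or more, 25.1% had an interval above 0, and their median ratio was 0.04.

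Class II held most of it. Chd3, Chd4 and Chd5 gave 69.96% of the family's counts in the deeper library (95% exact binomial interval 68.8 to 71.1) and 69.5% in the shallower (68.2 to 70.9). Class III gave 25.3% and 25.6%, and class I 4.75% and 4.87%, so no class share differed between the libraries by more than counting error. Longer mRNAs give more counts, so shares were also taken after dividing each count by a length, and they moved with it. By the length behind the deposited FPKM, class II held 69.7% ± 0.656 (SD, n = 2), class III 23.0% ± 0.411 and class I 7.28% ± 0.245. By the merged annotated exons the shares were 82.3% ± 0.292, 13.6% ± 0.260 and 4.05% ± 0.0317. By the longest transcript, a length added after the data were seen, they were 75.3% ± 0.494, 20.3% ± 0.436 and 4.44% ± 0.0584. Class II was the largest class by counts and by each of these lengths.

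**Figure D1:**
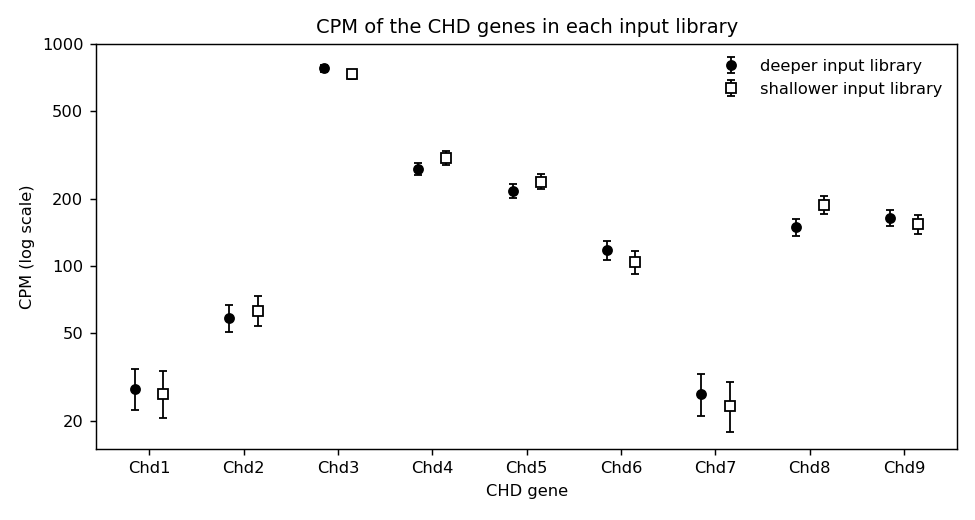
CPM of each CHD gene (log scale) in the deeper (filled circles) and the shallower (open squares) input library, with 95% Poisson intervals. Chd3 stands highest at 777 and 730 CPM, and Chd1 and Chd7 lowest, all below 30 CPM.

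Chd3 was the best measured member (ENSMUSG00000018474, chr11:69343273-69369406, minus strand). It encodes a NuRD motor also known as Mi-2 alpha. It had 2590 counts in the deeper library and 1871 in the shallower, or 777 CPM (95% Poisson interval 747 to 807) and 730 CPM (697 to 764). The intervals overlap, and the mean was 753 ± 33.1 CPM (SD, n = 2). The authors' FPKM (fragments per kilobase of transcript per 1000000 fragments) was 303 in the deeper and 284 in the shallower library. By mean FPKM Chd3 stood above 98.4% of the 6308 nuclear protein-coding genes that averaged 20 CPM or more. Per kb of the longest transcript it stood above 96.8% of them. Chd3 alone gave 42.9% of the family's counts in the deeper library (41.6 to 44.1) and 39.8% in the shallower (38.4 to 41.2). Those intervals do not overlap, so its share within the family differed by more than counting error.

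Chd4, the other widely expressed NuRD motor (Mi-2 beta; ENSMUSG00000063870, chr6:125095981-125130591, plus strand), had 911 counts in the deeper library and 786 in the shallower. Its levels were 273 CPM (256 to 292) and 307 CPM (286 to 329), and 91.9 and 103 FPKM. Chd3 exceeded Chd4 in both libraries. The ratio of Chd3 to Chd4 by FPKM was 3.29 in the deeper and 2.76 in the shallower library, and 2.62 and 2.20 per base of the longest transcript.

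Chd5, a class II gene whose expression in mouse is largely neural (ENSMUSG00000005045, chr4:152338651-152390194, plus strand), had 724 and 615 counts in the deeper and the shallower library. These are 217 CPM (202 to 234) and 240 CPM (221 to 260), with overlapping intervals, and 31.5 and 34.8 FPKM. Its place within the family depended on the length used, as given below.

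Among class III, Chd8 was highest by FPKM. CHD8 is among the human genes most often mutated in autism, and its protein can bind beta-catenin. The mouse gene (ENSMUSG00000053754, chr14:52198151-52257780, minus strand) had 499 counts in the deeper library and 482 in the shallower, although the shallower library is smaller. Its levels were 150 CPM (137 to 163) and 188 CPM (172 to 206), or 48.3 and 60.6 FPKM. Chd8 was the 1 member whose 95% Poisson intervals in CPM did not overlap between the libraries. The share of all genes with such intervals was not computed, so this does not set Chd8 apart. Its share of the family's counts was 8.26% (7.58 to 8.99) in the deeper and 10.2% (9.39 to 11.1) in the shallower library.

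Chd9 (ENSMUSG00000056608, chr8:90828352-91054516, plus strand) had 547 and 396 counts in the deeper and the shallower library, or 164 CPM (151 to 178) and 155 CPM (140 to 170). By FPKM it stood at 40.2 and 37.8. Chd6 (ENSMUSG00000057133, chr2:160946978-161109075, minus strand) had 393 and 266 counts, or 118 CPM (106 to 130) and 104 CPM (91.7 to 117), and 42.8 and 37.7 FPKM. The intervals of each gene overlap between the libraries. Both have longer longest transcripts than the class I and II genes, 12008 bases for Chd9 and 10515 for Chd6.

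Chd7 had the lowest mean level on every scale used, though by CPM and FPKM not below Chd1 by more than counting error. It encodes the remodeller altered in human CHARGE syndrome, and in mouse it acts in neural stem cells and in oligodendrocyte precursors. The gene (ENSMUSG00000041235, chr4:8690406-8867659, plus strand) had 88 counts in the deeper library and 60 in the shallower. These are 26.4 CPM (21.2 to 32.5) and 23.4 CPM (17.9 to 30.1), or 6.55 and 5.81 FPKM. In bulk tissue, few cells with much of an mRNA and many cells with little of it cannot be told apart. By FPKM Chd3 was 46.2 times as high as Chd7 in the deeper and 49.0 times in the shallower library.

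Class I had the fewest counts of the 3 classes. Chd1, which helps space nucleosomes behind RNA polymerase II (ENSMUSG00000023852, chr17:15704967-15772610, plus strand), had 93 and 68 counts in the deeper and the shallower library. Its levels were 27.9 CPM (22.5 to 34.2) and 26.5 CPM (20.6 to 33.6), or 8.73 and 8.30 FPKM. Chd2, whose human counterpart is mutated in an epileptic encephalopathy (ENSMUSG00000078671, chr7:73426638-73541830, minus strand), had 194 and 161 counts. Those are 58.2 CPM (50.3 to 67.0) and 62.8 CPM (53.5 to 73.3), or 34.4 and 37.1 FPKM. By mean FPKM Chd2 stood above 64.4% of the 6308 coding genes, and per kb of the longest transcript above 17.2%. Neither gene differed between the libraries by more than counting error.

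The order of levels per length changed with the length that divides the count. By the deposited FPKM the means ran from Chd3 (293 ± 12.9) through Chd4 (97.6 ± 7.96), Chd8 (54.5 ± 8.76), Chd6 (40.3 ± 3.62), Chd9 (39.0 ± 1.65), Chd2 (35.8 ± 1.94), Chd5 (33.1 ± 2.34) and Chd1 (8.52 ± 0.301) to Chd7 (6.18 ± 0.523; SD, n = 2 each). The ranges over the libraries overlapped for Chd6 and Chd9, and for Chd2 and Chd5, so neither pair can be put in order. Counting error also leaves some neighbours unordered, since the 95% interval of the ratio included 1 for Chd9 over Chd2 and for Chd1 over Chd7 in both libraries (0.990 to 1.38 and 0.985 to 1.80 in the deeper), and for Chd8 over Chd6 in the deeper library (0.985 to 1.29). Each FPKM value equals the count over the library total and over 1 whole-number length per gene. For 8 of the members that length is the mean over the gene's annotated transcripts within 1 base. For Chd8 it is 3101 bases, where the mean of its GENCODE M21 transcripts is 2541.

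The mean depends on how many short transcripts are annotated. Chd2 has 18, the shortest of 339 bases, and its divisor was 1691 bases against 9085 for its longest transcript. That is a 5.37-fold gap, and 0.365% of the 6308 coding genes have one as large or larger. Chd5 has 5 transcripts and a divisor of 6902 bases against 9486, a 1.37-fold gap. The median gap was 2.74-fold over the 9 members, against 1.90-fold over the 6308 genes.

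Divided by the longest transcript, Chd5 moved to the third place with 22.9 CPM per kb in the deeper and 25.3 in the shallower library. The full order was Chd3 (104 ± 4.55 CPM per kb), Chd4 (43.3 ± 3.53), Chd5 (24.1 ± 1.70), Chd8 (19.8 ± 3.19), Chd9 (13.3 ± 0.562), Chd6 (10.5 ± 0.947), Chd2 (6.66 ± 0.361), Chd1 (3.44 ± 0.121) and Chd7 (2.44 ± 0.206; SD, n = 2 each). No ranges of neighbours overlapped on this scale, though a range over 2 libraries is a weak measure of spread. Chd5 and Chd8 were close, at 22.9 CPM per kb for the lowest of Chd5 and 22.1 for the highest of Chd8, as were Chd1 and Chd7, at 3.35 for the lowest of Chd1 and 2.58 for the highest of Chd7. Chd5 over Chd2 was 0.914 in the deeper and 0.936 in the shallower library by FPKM, and 3.57 and 3.66 per longest transcript. Dividing by the merged length of all annotated exons gave the same order as the longest transcript. Chd3 and Chd4 were first and second, and Chd1 and Chd7 last, on all 3 scales.

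**Figure D2:**
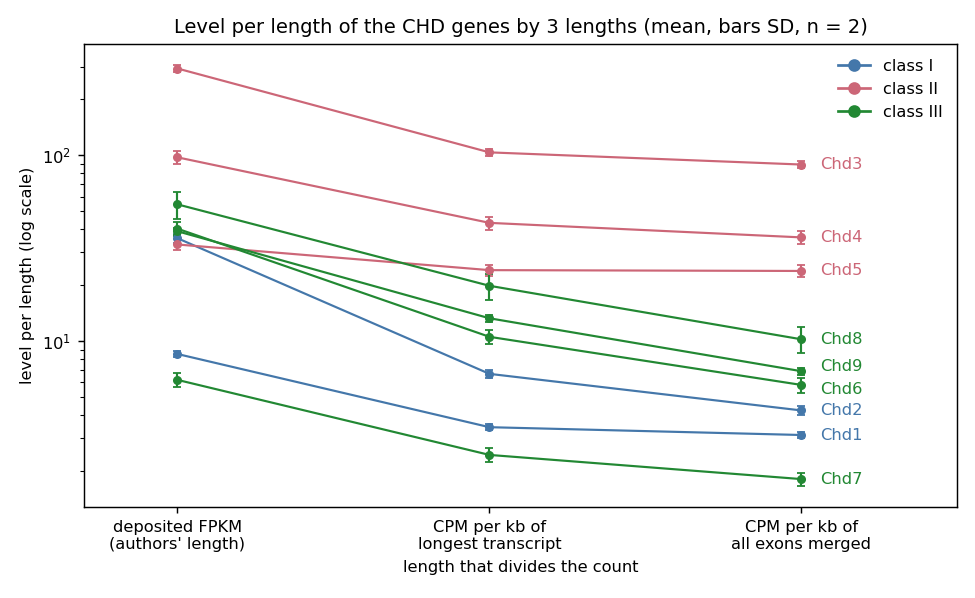
Level per length of each CHD gene (log scale; mean with SD as bars, n = 2) by the deposited FPKM, per kb of the longest transcript and per kb of all exons merged, coloured by class. The line of Chd5 crosses those of Chd2, Chd6, Chd8 and Chd9 between the first scale, where it is at 33.1, and the second, where it is at 24.1.

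Between the libraries the CHD genes differed little. Each ratio is a log2 ratio, deeper over shallower library, taken from log2(CPM + 0.5) with TMM factors, and the exact 95% interval beside it covers counting error. Of the 9 members 0 were at least 2-fold apart, where 3.93% of the 6915 genes averaging 20 CPM or more were. Set against that background, the count of 0 is not a result about the members. All 9 lay within 1.5-fold, as did 84.4% of all those genes. The median ratio was 0.21 for the members and 0.04 for all 6915 genes. The median size of the ratio, whatever its sign, was 0.21 and 0.26.

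The interval of the ratio left out 0 for 4 of the 9 members. The background for this count is 43.1% of the 6915 genes, so it is near the background too. Chd3 (0.23, interval 0.15 to 0.32), Chd6 (0.33, 0.10 to 0.56) and Chd9 (0.23, 0.04 to 0.42) were higher in the deeper library. Chd8 was lower (-0.18, -0.37 to -0.0015), with an end close to 0. The others were Chd7 (0.31, -0.17 to 0.82), Chd1 (0.21, -0.25 to 0.69), Chd2 (0.03, -0.28 to 0.34), Chd5 (0.00034, -0.16 to 0.16) and Chd4 (-0.02, -0.16 to 0.12). Without the factors the median of all 6915 genes moved to -0.10 and that of the members to 0.07. The intervals that left out 0 were then those of Chd3 (0.09, 0.0032 to 0.18), Chd4 (-0.17, -0.31 to -0.03) and Chd8 (-0.33, -0.51 to -0.15). The share of all genes that left out 0 without the factors was not computed, so this count is not a result about the members. Chd3 and Chd8 left out 0 in the same direction under both scalings. Each had an end close to 0 in 1 of them, 0.0032 for Chd3 without factors and -0.0015 for Chd8 with TMM. Chd2 and Chd5 turned from just above 0 to -0.11 and -0.14.

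**Figure D3:**
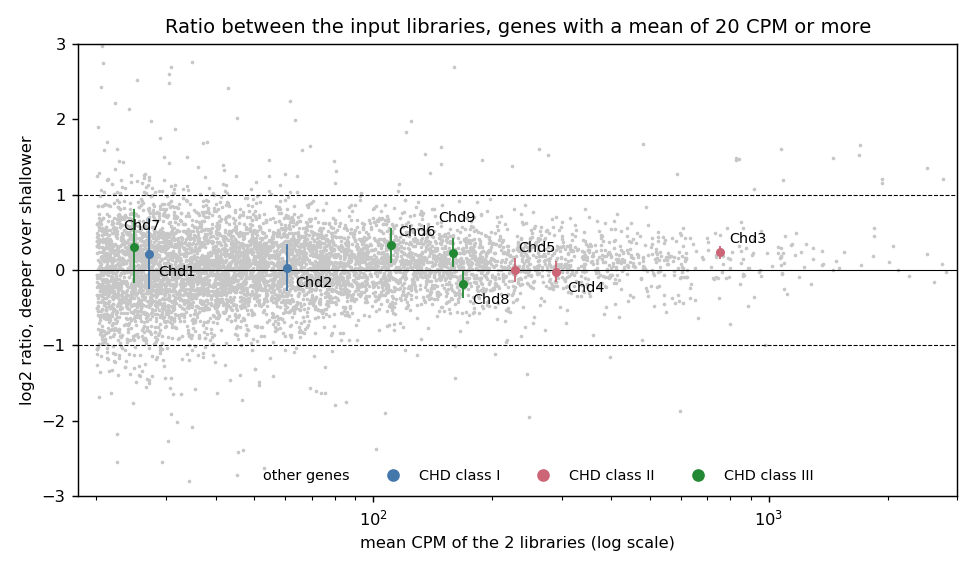
Log2 ratio of deeper over shallower input library against mean CPM (log scale) for genes averaging 20 CPM or more; CHD genes are coloured by class with 95% counting intervals, and dashed lines mark 2-fold. All 9 CHD genes sit between -0.18 and 0.33, inside the cloud of other genes; 34 other genes lie outside the axes.

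The members differ in base composition, which moves with the ratio across the transcriptome. Over the 6308 coding genes, ratios were lower at higher GC content of the longest transcript (Spearman's rho = -0.405 across genes, which share the 2 libraries and are not independent). Split into 5 equal bins by GC content, the genes had a median ratio of 0.31 in the lowest bin and -0.16 in the highest. Those genes run from 33.3% to 71.3% GC. By GC content the CHD genes lie from above 16.8% of them (Chd1) to above 87.7% (Chd5), so they reach both the lowest and the highest bin. The values were 43.2% GC in Chd1, 45.1% in Chd9, 47.9% in Chd2, 48.0% in Chd6, 49.4% in Chd8, 51.4% in Chd7, 52.9% in Chd4, 56.1% in Chd3 and 57.4% in Chd5. The members' median of 49.4% is close to the 49.5% of the 6308 genes. With the trend taken out the ratio was 0.40 for Chd3, 0.40 for Chd7 and 0.30 for Chd6. It was 0.19 for Chd5, 0.11 for Chd9, 0.09 for Chd4, 0.01 for Chd1 and 0.0083 for Chd2. Chd8 was the 1 member below 0 after this step, at -0.15. The part of base composition in these ratios was not tested.

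**Figure D4:**
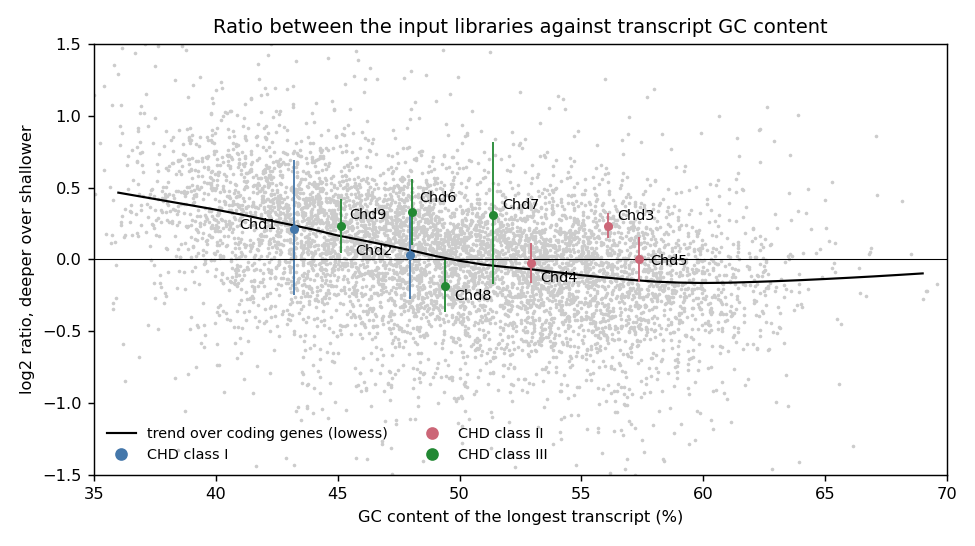
Log2 ratio of deeper over shallower input library against GC content of the longest transcript (%), with CHD genes coloured by class (95% counting intervals) and the trend over coding genes as a line. Chd3, at 56.1% GC and a ratio of 0.23, lies above the line, and Chd8, at 49.4% GC and -0.18, below it; 118 other genes lie outside the axes.

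Other features of the transcripts were shared only in part. All 9 have long mRNAs of many exons, with longest transcripts of 6697 bases (Chd4) to 12008 bases (Chd9) and 36 to 42 exons, where the median longest transcript of the 6308 genes is 4366 bases. The genes span from 26134 bases (Chd3) to 226165 bases (Chd9). YTHDF2 binds m6A, which is often placed in the sequence GGACT. On the transcript strand this word occurred 0.253 times per kb in Chd1, 0.551 in Chd3 and 0.597 in Chd4. It occurred 0.951 times per kb in Chd6, 1.05 in Chd5, 1.21 in Chd2, 1.25 in Chd9, 1.37 in Chd7 and 1.53 in Chd8. The median was 1.05 per kb over the members and 1.01 over the 6308 genes, 96.8% of which hold it at least once. These are matches of letters and say nothing of modification or of binding.

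The loci hold further annotated genes. Of 6 genes whose exons overlap those of a CHD gene, 3 had any count. 1810026B05Rik (ENSMUSG00000101970, chr7:73539203-73558395, minus strand) lies on the strand of Chd2 and shares 2628 exonic bases with it. It had 51 counts in the deeper library and 25 in the shallower, or 15.3 CPM (11.4 to 20.1) and 9.75 CPM (6.31 to 14.4). Its log2 ratio was 0.76 (0.08 to 1.55), beside 0.03 for Chd2. Per kb of the longest transcript it stood at 2.67 and 1.70 CPM, below the 6.40 and 6.91 of Chd2. Reads from the shared bases could have gone to either gene, so both counts are uncertain. Gm44686, antisense to Chd2, had 3 and 4 counts, and Mir7045, within an exon of Chd4, had 1 in each library.

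Partners of the CHD proteins and 23 other Snf2-family ATPases were measured too. They make up 5 lists with 59 genes, of which 41 averaged 20 CPM or more. Per kb of the longest transcript, by the mean of the 2 libraries, 0 of the 59 exceeded Chd3 and 2, Ctnnb1 and Cbx5, exceeded Chd4. Cbx5 did so in the deeper library (50.1 against 40.8 CPM per kb) but not in the shallower (42.4 against 45.8). By the rule for naming, the 3 genes of a list with the most CPM and any gene at least 2-fold apart are given. At that fold the background is 1.98% of genes higher and 1.95% lower in the deeper library.

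NuRD is the deacetylase complex around class II motors. Of its 12 other genes 6 reached 20 CPM, none of them 2-fold apart, with a median log2 ratio of -0.01. Gatad2b, a scaffold that links the motor to the rest of NuRD, had 838 counts in the deeper library and 434 in the shallower, or 91.9 and 61.9 FPKM. The histone chaperone Rbbp4 had 186 and 218 counts (21.9 and 33.4 FPKM), and the scaffold Mta3 148 and 109 (28.2 and 27.0 FPKM). By FPKM each was below Chd3 in both libraries. Gatad2b was the 1 of the 3 that came level with Chd4, at 91.9 against 91.9 FPKM in the deeper library and 61.9 against 103 in the shallower.

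In the ChAHP complex Chd4 joins the transcription factor Adnp and heterochromatin protein 1. Of 5 genes 4 reached 20 CPM, 0 of them 2-fold apart, with a median ratio of 0.32. Cbx5, which encodes heterochromatin protein 1 alpha, had 1472 counts in the deeper and 957 in the shallower library, or 126 and 107 FPKM. These were above the 91.9 and 103 FPKM of Chd4, but per kb of the longest transcript Cbx5 was above Chd4 in the deeper library only. Cbx3 had 109 and 68 counts, and the Adnp paralogue Adnp2 116 and 114. Adnp itself had 14 and 13 counts; it was chosen after its values were seen.

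Chd1 is linked to factors that act with elongating RNA polymerase II. Of 9 such genes 8 reached 20 CPM, with a median ratio of -0.24, and 1 was 2-fold apart. That gene was Supt5, a subunit of the pausing and elongation factor DSIF, with 64 counts in the deeper library and 126 in the shallower (log2 ratio -1.19, -1.67 to -0.77). Supt6, a histone chaperone of elongation, had 385 and 413 counts, or 22.3 and 31.2 FPKM. The PAF1 complex gene Cdc73 had 319 and 145, and the FACT subunit gene Ssrp1 130 and 117. By FPKM all 4 stood above Chd1 in both libraries except Supt5, which was level in the deeper library (8.65 against 8.73).

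Partners reported for Chd7 and Chd8 include subunits of histone methyltransferase and PBAF complexes. Of 10 genes 8 reached 20 CPM, with a median ratio of -0.14. Ctcf, the architectural DNA-binding factor, was 2-fold apart at 41 counts in the deeper library and 72 in the shallower (log2 ratio -1.02, -1.64 to -0.47). Ctnnb1, which encodes beta-catenin, had 982 and 804 counts, or 205 and 218 FPKM. The PBAF subunit genes Arid2 and Pbrm1 had 188 and 210, and 175 and 135. Fam124b had 0 counts in both libraries, which allows up to 0.900 CPM in the deeper and 1.17 CPM in the shallower.

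The other Snf2-family ATPases are motors of other remodelling complexes and of repair. Of 23 genes 15 reached 20 CPM, 0 of them 2-fold apart, with a median ratio of -0.01. Ep400, the motor of the TIP60 complex, had 681 counts in the deeper and 532 in the shallower library, or 52.6 and 53.5 FPKM. Atrx, which deposits histone variants in heterochromatin, had 579 and 315 (102 and 72.3 FPKM), and Smarca2, a motor of BAF complexes, 464 and 365 (95.1 and 97.3 FPKM). Per kb of the longest transcript these 3 stood at 19.3 ± 0.221, 14.4 ± 3.49 and 23.8 ± 0.389 CPM per kb (SD, n = 2), all below Chd4. By FPKM Atrx and Smarca2 were above the 91.9 of Chd4 in the deeper library and below its 103 in the shallower. Chd1l, which bears a similar name but has a macrodomain and no chromodomains, had 8 and 7 counts.

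**Figure D5:**
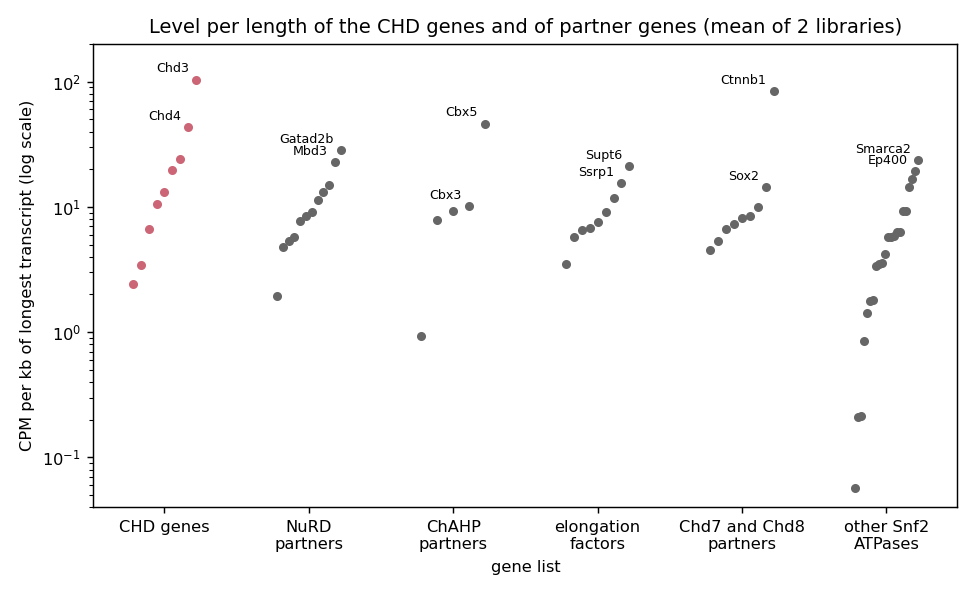
Mean level of each gene in CPM per kb of its longest transcript (log scale) for the CHD genes and 5 lists of other genes. The lists hold partner genes and other Snf2-family ATPases. Each point is 1 gene, each list is sorted by level and the 2 highest genes of a list are named. Chd3, at 104 CPM per kb, stands above every other gene drawn. The 2 genes with 0 counts are not drawn.

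The libraries carried the transcripts of the labelled tissue. Marker genes of neurons summed to 7461 CPM in the deeper and 7328 CPM in the shallower library over 5 genes, and those of hippocampal principal cells to 1486 and 1169 CPM over 4. Astrocyte markers summed to 5938 and 4619 CPM, oligodendrocyte markers to 3113 and 3163, their precursors' to 106.8 and 106.1 and microglial markers to 145 and 139. Slc1a2 was most of the astrocyte sum, at 5277 and 3900 CPM. Aqp4 was also higher in the deeper library, but Gja1 and Aldoc were lower. Of the principal cell markers, Zbtb20, Prox1 and Neurod6 were higher in the deeper library and Wfs1 was lower. The cerebellar granule cell genes Gabra6 and Cbln3 had 0 counts in both libraries, the 3 striatal markers summed to 27.9 and 46.4 CPM and the 2 thalamic markers to 9.90 and 9.75. Mitochondrial genes took 3.65% of counts in the deeper and 1.73% in the shallower library. Which cells gave the CHD mRNAs was not tested.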

How the data were processed

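Raw read counts per gene and FPKM values were deposited by the authors for 52636 Ensembl gene IDs, 52403 of which GENCODE M21 (GRCm38) names. BWA 0.7.12, MACS2 2.1.0, HOMER and GRCm38 are named per the submitters' processing notes, with no role. For the counter, its settings and its annotation: not given in the sources used here. The deposited FPKM values equal the deposited counts over the library total and a whole-number length (tolerance 0.01 bases) for 100% of the 18734 genes counted in both libraries.

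CPM was computed from the counts and library totals. Log2 ratios used edgeR 4.0.16 TMM factors of 0.951 (deeper) and 1.05 (shallower) over the 12218 genes that averaged 5 CPM or more. They were tested on simulated data with counting error only and changes larger than any member showed. That test cannot judge ratios as small as the members' or spread beyond counting error. A total of 3 counts, the limit that 0 counts allow, is 0.900 and 1.17 CPM. Lengths, GC content and sequences came from GENCODE M21 transcripts; 31-base words were compared on both strands with every other gene's transcripts. The ATP-binding loop was located by its protein motif in the translated coding sequence.

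No group comparison was possible with 1 group, so no count model was tested. Alternatives were other factors, an added 2 in place of 0.5, other minimum CPM values, a GC trend (lowess over coding genes, statsmodels 0.14.6) taken out, other lengths, and each library alone. Members, the lists of partners and other Snf2-family ATPases, and the naming rule were chosen with earlier results of these data known. The rule names all members, Chd1l, 1810026B05Rik and genes with counts whose exons overlap a member. Per list, it also names the 3 genes with the highest CPM and those at least 2-fold apart at 20 CPM or more. Per-library columns not used numbered 0. The IP samples were not analysed here.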

Additional observations from a re-analysis of the deposited data

How the results depend on the processing

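The family's summed level was 1811 to 1836 CPM in single libraries, and 2476 CPM when the total was taken over nuclear protein-coding genes only. Class shares moved with the length that divides the count. By the length behind the FPKM, class I held 7.28% and class III 23.0%, with class II at 69.7%. By the merged exons the shares were 4.05%, 13.6% and 82.3%. By the longest transcript, an alternative chosen after seeing the data, they were 4.44%, 20.3% and 75.3%. The count of members at least 2-fold apart was 0 with no factors, DESeq2 factors, 2 added to CPM, the GC trend taken out and no minimum. Over all genes 1164 were 2-fold apart at a minimum of 5 CPM, 6785 with no minimum and 88 at 50 CPM, against 272 at 20 CPM. The number of members with a ratio above 0 was 7, and 5 without factors and 8 with the GC trend taken out, both chosen after seeing the data. In these settings the median ratio of all genes averaging 20 CPM or more was 0.04, -0.10 and 0.05. The share of all genes above 0 was not computed, so these counts are not a result about the members. All 9 levels per length moved by more than their spread with either other length. Both other lengths are longer than the FPKM length for every member, so each level had to fall. None moved with a single library, but either of 2 values always lies within their SD of the mean, so that outcome was fixed in advance. No paired analysis was possible because only input columns were used and the column names carry no replicate number of the labels. Depth limits Chd1 and Chd7 most, with 60 to 93 counts.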

Other observations

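Within introns of the CHD genes lie 10 other annotated genes, 9 of which had a count. These genes and the neighbours named next were picked with their values known. The scaRNA gene Gm22442, in an intron of Chd3 on its strand, had 30 counts in the deeper and 29 in the shallower library. Gm45640, an unclassified transcript (TEC) in an intron of Chd9 on its strand, had 32 and 26, and Gm44553, in an intron of Chd2 on its strand, 9 and 20. The snoRNA gene Snord8 in Chd8 and the scaRNA gene Gm23751 in Chd4 had 1 and 0 counts each.

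Kcnab2, a potassium channel subunit gene that ends 547 bases from Chd5 on the other strand, had 2019 counts in the deeper library and 204 in the shallower (log2 ratio 3.06, 2.86 to 3.29), beside 724 and 615 for Chd5. Rab2b, a vesicle transport GTPase gene 3978 bases from Chd8, had 64 and 6 counts (2.92, 1.98 to 4.68). Supt16, which encodes a FACT subunit and lies 734 bases from the other end of Chd8, had 62 and 90 (-0.76, -1.26 to -0.29), and Rnf227, 631 bases from Chd3, 226 and 160 (0.26, -0.04 to 0.56).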
